A study of Mus musculus with 7 samples.

Results

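Whole-muscle profiles of 3 mouse tibialis anterior muscles labelled DMD were set against 2 labelled WT, 5 of the 7 muscles of the series. Duchenne muscular dystrophy is caused by loss of dystrophin, the protein that ties the contractile apparatus of a muscle fibre to its surface membrane and the matrix outside it. Fibres without it tear during contraction, die and are rebuilt by fusion of muscle precursor cells, while macrophages clear the debris and fibroblast-like cells lay down matrix. The tibialis anterior is a fast muscle of the lower leg. The members were taken by label, and a muscle is named by its group and replicate number, as in DMD-3. Each muscle had been cryosectioned, RNA had been extracted from each section with TRIZOL and primed with a section barcode, and the section columns of a muscle (66 and 80 for WT, 77, 83 and 73 for DMD, 379 of 525 in all) were summed into 1 profile. The other muscles, labelled Ctr, with 74 and 72 sections, entered the fit and are given beside the results. The labels give the group name and the tissue, and no genotype, strain, age, sex or treatment. The columns of the deposited tables carry pax7 in WT, hDMD in Ctr and mdx in DMD, which the labels do not explain. In general usage mdx is a mouse that lacks dystrophin, hDMD denotes the human DMD gene and Pax7 marks muscle stem cells. Nothing states that muscles of a group came from separate animals, so the p-values measure only the spread between these muscles, which may be technical.

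Totals over the 53083 genes that both annotations share were 23558607 and 18387821 counts in WT and 41695696, 11314459 and 23514172 in DMD. Dmd, the mouse dystrophin gene, stood at 16.4 and 13.5 CPM (counts scaled to a common library total, and between muscles by the TMM method) in the WT muscles and 9.25, 14.8 and 9.84 in DMD replicates 1, 2 and 3. Its log2 difference of -0.42 ± 0.28 (SE) did not pass (edgeR quasi-likelihood test, adjusted p = 0.335), so the level of this transcript does not separate the labels. A row for human DMD, counted only in Ctr and DMD, held 812, 257 and 338 counts in the DMD muscles and 304 and 306 in Ctr. Scaled by the total alone these were 19.5, 22.7 and 14.4 CPM in DMD and 19.4 and 24.7 CPM in Ctr, so this row does not separate DMD from Ctr. Fast-fibre genes were abundant in all 7 muscles, with the 12 genes of that list summing to between 100100 and 202500 CPM. Xist was at 0 in the 5 WT and DMD muscles. WT was counted with another annotation from DMD and Ctr, and the mitochondrially encoded share of counts was 41.6% and 45.9% in WT, 29.9%, 25.7% and 34.3% in DMD and 30.4% and 29.4% in Ctr. Those shares are before TMM scaling. The TMM factors were 0.805 and 0.669 in WT, 1.41, 1.34 and 0.982 in DMD and 1.04 and 0.961 in Ctr. Dividing by them raised every WT level relative to every DMD level, so differences in CPM include this scaling. The DMD label and whatever else set the WT tables apart cannot be told apart in DMD against WT, and Ctr levels are therefore given beside many of the results.

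Of 13766 genes tested, 1152 (8.37%) were higher and 961 (6.98%) lower in DMD, 2113 (15.3%) in all at an adjusted p under 0.05 (edgeR quasi-likelihood test, Benjamini-Hochberg adjustment over all genes tested). The median log2 difference over all tested genes was 0.07. WT against Ctr, from the same fit, gave 61 genes (0.443%). The ranges of the WT and DMD muscles did not overlap for 50.8% of all tested genes, so non-overlap alone says little. They did not overlap for 2110 of the 2113 genes that passed. Where a gene that passed is described below as not overlapping, this therefore adds little to the call. The DMD muscles were not alike. On the first principal component of log2 CPM, which carried 53.5% of the variance, DMD replicates 1 and 2 lay at 50.5 and 45, DMD-3 at 12.9, and the WT muscles at -25.9 and -25.8. DMD-3 was the lowest of the 3 DMD muscles in 800 of the 1152 higher genes, whose median log2 over the WT mean was 1.80, 1.74 and 1.16 in replicates 1, 2 and 3. For the 961 lower genes the same medians were -1.08, -1.08 and -0.99.

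**Figure D1:**
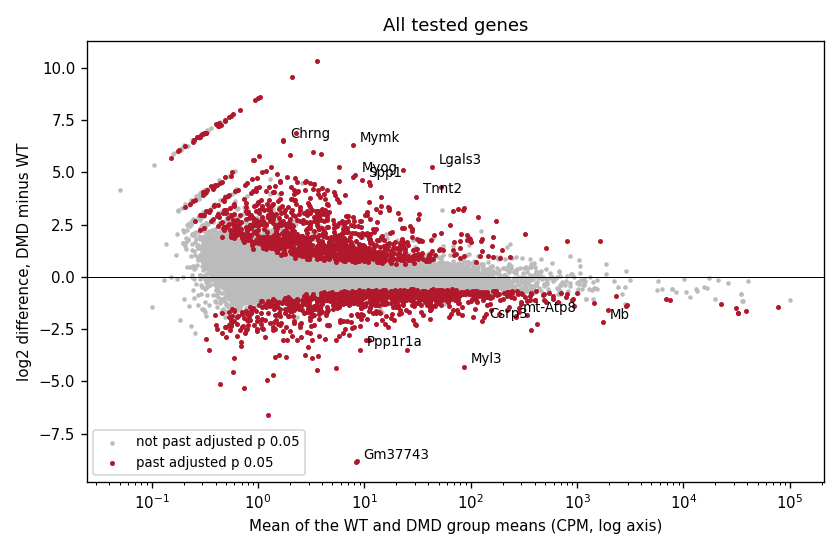
Each point is 1 of 13766 tested genes, with the mean of the WT and DMD group means in CPM (log axis) against the log2 difference, DMD minus WT. The 2113 genes past an adjusted p of 0.05 are red, and named genes are labelled, among them Myl3 at -4.30 and Tnnt2 at 3.83.

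The number of genes that passed rested heavily on the pair of WT muscles. Without WT-1 it was 77 and without WT-2 it was 54, with the remaining WT muscle assumed to vary like the other groups. It was 871 without DMD-1, 1122 without DMD-2 and 3585 without DMD-3. A set of 40 genes passed under each of these 5 fits, 4 of them higher and 36 lower in DMD. Tnnt2, cardiac troponin T, which skeletal muscle makes while it develops or regenerates, stood at 3.69 and 4.31 CPM in WT and 51.6, 85.2 and 34.1 CPM in DMD. It rose 14.2-fold (log2 3.83 ± 0.40, adjusted p = 0.00166). Chrna1, the alpha subunit of the muscle acetylcholine receptor, rose from 4.91 and 3.91 CPM to 40.5, 41.2 and 28 CPM (log2 3.04 ± 0.27, adjusted p = 0.000596). Ahnak2, which encodes a large scaffold protein, rose from 2.32 and 2.6 CPM to 24.4, 23.9 and 21.1 CPM (log2 3.24 ± 0.22, adjusted p = 0.000147). In these 3 genes every DMD muscle, DMD-3 included, lay far above every WT muscle, as the rule that named Tnnt2 and Chrna1 required ranges without overlap. The fourth, Peg3, an imprinted zinc finger gene named here after its values were seen, rose from 3.33 and 2.6 CPM to 29, 25.6 and 37 CPM (log2 3.35 ± 0.30, adjusted p = 0.000596). Myl3, the slow and ventricular essential myosin light chain, fell from 154 and 175 CPM to 8.89, 8.24 and 7.89 CPM (log2 -4.30 ± 0.20, adjusted p = 1.71e-05), which was 19.7-fold. Ppp1r1a, an inhibitor of protein phosphatase 1, fell from 17.2 and 16.3 CPM to 1.74, 1.19 and 1.43 CPM (log2 -3.48 ± 0.23, adjusted p = 0.000140). The Ctr muscles held 14.5 and 11.2 CPM of Ppp1r1a, close to WT, and 40.9 and 48.8 CPM of Myl3, between the WT and DMD levels.

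**Figure D2:**
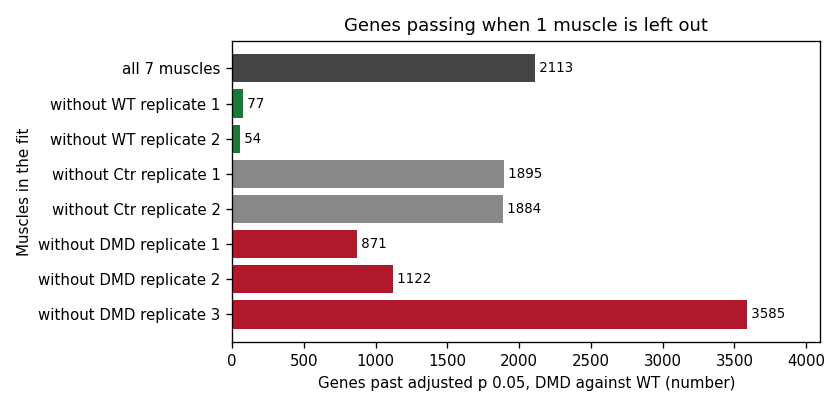
Bars give the number of genes past an adjusted p of 0.05 in DMD against WT, with all 7 muscles and with each muscle left out in turn. The bars without WT-1 (77) and WT-2 (54) are the shortest, and the bar without DMD-3 (3585) exceeds the bar for all muscles (2113).

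Genes of regenerating fibres rose. During repair, precursor cells switch on myogenin, fuse through myomaker and myomixer, and build new fibres that at first use embryonic sarcomere proteins and the fetal form of the acetylcholine receptor. The promoters of Chrna1 and Chrng are printed because both encode subunits of that receptor, and that of Tnnt2 because it passed under each of the 5 fits. CAGCTG, a form of the E-box that myogenic basic helix-loop-helix factors such as myogenin can bind and that reads the same on both strands, was searched in the 250 bases before each RefSeq gene start (build GRCm38.p6). Only promoter entries with a match were printed for these genes, so the presence of the motif in them follows from that choice. The promoter of Chrnb1, a further receptor subunit that rose, is not shown. Each of the printed promoters held the motif 2 times, shown in capitals, 5′ to 3′ on the gene's strand.
Chrna1, chr2:73580339-73580588, minus strand: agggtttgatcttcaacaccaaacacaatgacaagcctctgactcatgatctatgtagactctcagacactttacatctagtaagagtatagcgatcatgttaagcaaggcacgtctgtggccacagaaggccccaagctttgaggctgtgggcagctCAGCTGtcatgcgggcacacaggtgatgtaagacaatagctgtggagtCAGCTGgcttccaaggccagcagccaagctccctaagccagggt
Chrng, chr1:87205561-87205810, plus strand: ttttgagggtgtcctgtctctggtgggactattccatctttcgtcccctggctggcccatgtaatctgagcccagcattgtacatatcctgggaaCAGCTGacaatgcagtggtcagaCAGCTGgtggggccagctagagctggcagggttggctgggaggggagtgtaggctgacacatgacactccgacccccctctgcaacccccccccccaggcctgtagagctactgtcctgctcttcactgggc
Tnnt2, chr1:135836084-135836333, plus strand: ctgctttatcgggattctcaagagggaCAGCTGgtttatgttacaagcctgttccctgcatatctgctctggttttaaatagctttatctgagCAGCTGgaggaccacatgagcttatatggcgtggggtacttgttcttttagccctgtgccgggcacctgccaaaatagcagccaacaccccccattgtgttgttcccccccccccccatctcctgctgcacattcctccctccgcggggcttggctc
Counted back from the gene start, the matches began 92 and 44 bases before it in Chrna1, 155 and 132 in Chrng and 223 and 157 in Tnnt2. Of the 12 regenerating-fibre genes, 8 had an entry and 2 of these, Chrng and Tnnt2, held the motif. It was present in 14.6% of the 9922 tested genes with an entry, and 1.27% held it at least 2 times. A match is a description of the letters and not evidence of binding.

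Of the 12 regenerating-fibre genes, 9 rose and none fell, against 8.37% higher among all genes, and their median log2 difference was 3.51. It was 2.96 with Mymx set at its lower bound. The number of the 12 that passed was 1 without either WT muscle, 7 without DMD-1, 6 without DMD-2 and 9 without DMD-3. Myog, encoding myogenin, stood at 0.528 and 0.57 CPM in WT and 30.6, 12.7 and 3.9 CPM in DMD, a 28.9-fold rise (log2 4.85 ± 0.92, adjusted p = 0.0139). Mymk, encoding the fusion protein myomaker, stood at 0.264 and 0.0814 CPM in WT and 18.5, 22.8 and 5.03 CPM in DMD (log2 6.30 ± 0.92, adjusted p = 0.00508). Both were highest in DMD replicates 1 and 2, and DMD-3 still exceeded both WT muscles. Mymx, the fusion peptide myomixer, had no count in either WT muscle and 0.835, 0.791 and 0.303 CPM in DMD, which puts DMD at least 6.7-fold higher when WT is given 3 counts in all (adjusted p = 0.0239). Chrng, the fetal receptor subunit whose promoter is printed above, had 1 count in WT and 369 in DMD, a ratio of scaled pooled counts of 119 (exact 95% interval 21.2 to 4710, counting error only). Its DMD muscles held 4.69, 4.29 and 1.26 CPM (adjusted p = 0.00959). The 3 regenerating-fibre genes that did not pass were Myh8 (log2 1.35), Myod1 (0.79) and Cdh15 (0.40). Runx1, a transcription factor of damaged and denervated muscle, is not on that list. It rose from 0.845 and 0.57 CPM to 13.3, 6.66 and 4.38 CPM (log2 3.50 ± 0.56, edgeR adjusted p = 0.00764). Of 10 tested genes of atrophy and denervation it alone passed and the other 9 did not, which is not read as a difference from the 8.37% among all genes. Among 5 satellite-cell genes none passed, with log2 differences from -0.65 for Pax7 to 1.27 for Vcam1. In Ctr, Myog was at 2.33 and 0.841 CPM and Mymk at 0 and 0.336 CPM. Of the 6 called genes of this paragraph, Tnnt2 included, Tnnt2 alone passed without WT-1 (adjusted p from 0.0404 to 0.172) or WT-2 (0.0394 to 0.164). Chrng then had a log2 difference of 5.30 without WT-1 and 9.35 without WT-2, and Mymk of 7.47 without WT-1. Without DMD-1, Myog was at 3.87 and Runx1 at 2.89. Mymx was not tested in the fit without DMD-1 or without DMD-2, where its counts fell below the filter. With the average of WT and Ctr as reference, Myog was at 4.06 and Chrng at 7.88.

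Most genes of the synapse, calcium handling and the dystrophin complex did not pass, as was true of all genes, where 8.37% were higher and 6.98% lower. Counts of 1 or 2 among 13 genes are not read as a difference from those shares. Of 13 synaptic genes 2 rose, with a median log2 difference of 1.19, and the other 11 did not pass. The genes that rose were Chrna1, described above, and Chrnb1, the beta subunit of the receptor, which stood at 8.92 and 7.97 CPM in WT and 24.3, 18.6 and 28 CPM in DMD (log2 1.48 ± 0.24, adjusted p = 0.00733). DMD-3 was not low here: it held the highest Chrnb1 level of the 3. In calcium handling 2 of 13 genes rose and 1 fell. Sln, encoding sarcolipin, a small inhibitor of the calcium pump, rose from 1.74 and 2.69 CPM to 5.42, 12.9 and 22.9 CPM (log2 2.65 ± 0.56, adjusted p = 0.0190), highest in DMD-3. Orai1, the store-operated calcium channel, rose from 29 and 29 CPM to 61.4, 64.6 and 95.7 CPM (log2 1.35 ± 0.30, adjusted p = 0.0214). Jph1, a junctophilin that joins the surface tubules to the calcium store, fell by 0.76 ± 0.21 (log2, adjusted p = 0.0379). Among 13 members of the dystrophin complex 1 rose and 1 fell, with a median log2 difference of 0.11. Sntb1, encoding a syntrophin, rose from 2.27 and 2.12 CPM to 6.68, 7.98 and 3.47 CPM (log2 1.45 ± 0.36, adjusted p = 0.0282). Nos1, the neuronal nitric oxide synthase that is anchored to the complex, fell from 66.7 and 49.9 CPM to 21.1, 32.4 and 38.1 CPM (log2 -0.94 ± 0.27, adjusted p = 0.0470), and Ctr held 149 and 110.4 CPM, above WT. Utrn, the dystrophin relative utrophin, had a log2 difference of 0.46 that did not pass. Of the 7 genes called here, Chrna1 alone passed without WT-1 (adjusted p 0.0177 to 0.30) or WT-2 (0.0319 to 0.199). Jph1, Sntb1 and Nos1 did not pass without DMD-1 (largest adjusted p 0.0958) or DMD-2 (0.0849). Nos1 also did not pass without Ctr-1 (0.0549) or Ctr-2 (0.0550), nor Jph1 against the average of WT and Ctr (0.0740). Leaving out DMD-3 put the Sln difference at 2.04.

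Macrophage genes rose as a group, and most in DMD replicates 1 and 2. Of 14 macrophage genes 13 rose, against 8.37% higher among all genes, with a median log2 difference of 3.41. The remaining gene, Cd163 (-0.39), did not pass. None of the 14 passed without either WT muscle, 9 passed without DMD-1, 11 without DMD-2 and 13 without DMD-3. Their summed level was 64 and 75.3 CPM in WT, 998.5, 771.7 and 170.8 in DMD and 45.3 and 70.3 in Ctr. A sum over a whole muscle cannot tell more macrophages from more RNA per macrophage. Lgals3, encoding galectin-3, stood at 2.48 and 1.87 CPM in WT and 138, 101.9 and 12.6 CPM in DMD, a 38.1-fold rise (log2 5.25 ± 0.91, adjusted p = 0.00998). Gpnmb, a membrane glycoprotein of lipid-laden macrophages, stood at 1.53 and 0.976 CPM and 87.7, 40.6 and 5.59 CPM (log2 5.12 ± 1.04, adjusted p = 0.0169). In both genes DMD-3 was the lowest DMD muscle and still lay above both WT muscles. Trem2, a lipid-sensing receptor of phagocytes, had 3 counts in WT and 743 in DMD, a ratio of scaled pooled counts of 79.8 (exact 95% interval 27.2 to 388, adjusted p = 0.0169). Spp1, encoding osteopontin, rose from 0.422 and 1.14 CPM to 40.5, 12.1 and 1.47 CPM (log2 4.64 ± 1.22, adjusted p = 0.0340). Spp1 overlaps a gene named Gm42793, so reads there may be shared between them. Lyz2, the macrophage lysozyme, rose from 25.1 and 31.6 CPM to 269, 286 and 63.3 CPM (log2 2.86 ± 0.59), Ctss, a lysosomal protease, from 4.65 and 5.53 CPM to 164, 113 and 19.9 CPM (log2 4.29 ± 0.76), and Fcer1g, an immunoglobulin receptor subunit, from 6.33 and 8.3 CPM to 95.8, 64.3 and 15.7 CPM (log2 3.01 ± 0.63). Their adjusted p values were 0.0179, 0.0106 and 0.0184 in that order (edgeR).

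**Figure D3:**
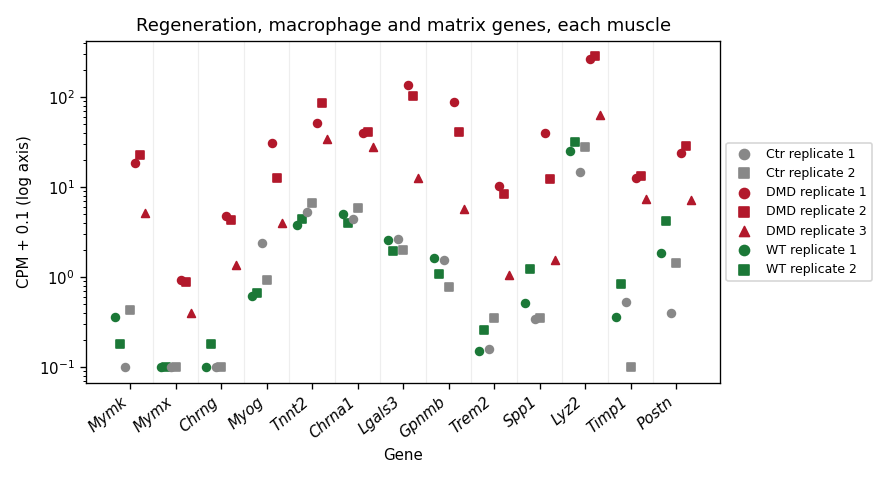
Points give the level of each gene in each of the 7 muscles as CPM + 0.1 on a log axis, coloured by group and shaped by replicate. All DMD points lie above all WT points for these 13 genes, with DMD-3 the lowest DMD point in each, and all Ctr points lie below all DMD points. WT and DMD did not overlap for 2110 of the 2113 genes that passed.

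Complement, a set of proteins that mark debris for removal, rose in part. Of 10 genes 5 rose, against 8.37% higher among all genes, with a median log2 difference of 1.30. Leaving out either WT muscle left none of them. The 3 chains of C1q, which starts the classical cascade, rose together. C1qb went from 15.5 and 17.7 CPM to 183, 237 and 40 CPM (log2 3.21 ± 0.63), C1qa from 4.8 and 6.18 CPM to 49.2, 48.5 and 15.4 CPM (log2 2.79 ± 0.52) and C1qc from 6.86 and 9.85 CPM to 70.8, 69.6 and 26.3 CPM (log2 2.74 ± 0.46). Their adjusted p values were 0.0155, 0.0124 and 0.00908 (edgeR). C4b, a later component, rose from 2.22 and 2.28 CPM to 10.2, 16.6 and 11 CPM (log2 2.48 ± 0.31, adjusted p = 0.00298). For C4b the Ctr muscles, at 10.7 and 7.57 CPM, also lay above WT (WT minus Ctr log2 -2.03, adjusted p = 0.0457), and DMD against Ctr did not pass (log2 0.45, adjusted p = 0.280). Against the average of WT and Ctr the difference was 1.46. C4b therefore separates WT from both other groups. Lymphocyte and granulocyte genes were near the detection limit. Only 2 of 8 lymphocyte genes and 2 of 8 granulocyte genes could be tested, none passed, and Cd8a and Elane had no count in any muscle. Summed over the tested members, lymphocyte genes reached 0.390 to 0.923 CPM in DMD and 1.37 to 2.60 CPM in WT. None of the 11 macrophage and complement genes named in the last 2 paragraphs passed without WT-1 (adjusted p 0.0556 to 0.228) or WT-2 (0.0599 to 0.188). Spp1 also did not pass without DMD-1 (log2 3.15, adjusted p = 0.0669) or DMD-2 (0.0537). Without WT-1 and WT-2 in turn, the log2 difference of Trem2 was 5.28 and 6.80 and that of Spp1 4.0 and 5.41. Without DMD-1 it was 4.13 for Gpnmb and 3.69 for Ctss, and with the average of WT and Ctr as reference 5.4 for Spp1.

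Some chemokine and cytokine genes rose too. Of 10 such genes 6 rose, the receptors Ccr2 and Cx3cr1 among them, against 8.37% higher among all genes, with a median log2 difference of 2.40. It was none without either WT muscle, 1 without DMD-1, 2 without DMD-2 and 9 without DMD-3. Ccl7 and Ccl8 are ligands of monocyte chemokine receptors. Ccl7 stood at 0.581 and 0.163 CPM in WT and 11, 10.7 and 1.26 CPM in DMD (log2 4.23 ± 0.98, adjusted p = 0.0227). Ccl8 rose from 0.317 and 0.163 CPM to 3.07, 6.59 and 3.42 CPM (log2 4.05 ± 0.62, adjusted p = 0.00625), and here DMD-1, not replicate 3, was the lowest. Ccl9 rose from 2.59 and 2.44 CPM to 25.5, 20.2 and 2.77 CPM (log2 2.69 ± 0.77, adjusted p = 0.0439), with DMD-3 just above WT, and Cx3cr1, the fractalkine receptor, from 0.106 and 0.163 CPM to 4.23, 2.11 and 0.39 CPM (log2 4.11 ± 1.10, adjusted p = 0.0353). Ccl2 did not pass (log2 3.33, adjusted p = 0.0627, edgeR), and its DMD-3 level of 0.303 CPM lay between the WT levels of 0.264 and 0.326 CPM. Ccl6 (log2 2.04, adjusted p = 0.0635, edgeR), Cxcl12 (-0.12) and Cxcl14 (0.61) did not pass either. Of the MHC class II genes, which present antigen, 3 of 5 rose, beside the same 8.37% among all genes. H2-Ab1 went from 30.2 and 32.6 CPM to 149, 176 and 69.6 CPM (log2 2.07 ± 0.52, adjusted p = 0.0291), H2-Aa had a log2 difference of 1.85 ± 0.47 (adjusted p = 0.0305) and Ciita, their transcriptional activator, of 2.81 ± 0.77 (adjusted p = 0.0385). H2-Eb1 and Cd74 had positive differences (1.5 and 1.48) that did not pass. Of 9 interferon and MHC class I genes 1 rose, H2-D1 (log2 0.87 ± 0.26, edgeR adjusted p = 0.0475). This count is not read as a difference from the 8.37% higher among all genes.

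Several protease genes rose. Of 14 lysosomal and protease genes 7 rose, against 8.37% higher among all genes, with a median log2 difference of 1.37. Without either WT muscle none passed, and the number was 2 without DMD-1 or DMD-2 and 10 without DMD-3. Adam8, a membrane protease of leukocytes, had no count in either WT muscle and 7.5, 4.61 and 0.433 CPM in DMD, which puts DMD at least 43.5-fold higher with 3 counts given to WT in all (adjusted p = 0.0226). Mmp12, the macrophage elastase, had 1 count in WT and 420 in DMD, a ratio of scaled pooled counts of 135 (exact 95% interval 24.2 to 5360, adjusted p = 0.0426), and the DMD muscles held 4.86, 8.63 and 0.173 CPM. DMD-3 thus carried little Mmp12. Mmp3, stromelysin, rose from 0.264 and 0.163 CPM to 2.47, 3.1 and 0.65 CPM (log2 3.19 ± 0.80, adjusted p = 0.0295). Lgmn, the lysosomal protease legumain, rose from 2.43 and 2.85 CPM to 21.1, 6.53 and 6.98 CPM (log2 2.16 ± 0.54, adjusted p = 0.0291). Cd44, a receptor for hyaluronan, rose from 14.8 and 12.6 CPM to 139, 189.6 and 37.7 CPM (log2 3.15 ± 0.63, adjusted p = 0.0161), and Tmsb10, an actin-binding thymosin, from 13.1 and 16.4 CPM to 153, 185 and 73.2 CPM (log2 3.22 ± 0.44, adjusted p = 0.00397). None of the 14 genes called in the last 2 paragraphs passed without WT-1 (adjusted p 0.0761 to 0.247) or WT-2 (0.0705 to 0.280). Without DMD-1, 4 of the 11 still tested passed (Tmsb10, Cd44, Ccl8 and Lgmn), and without DMD-2 these and Ccl7 did. Left-out muscles moved the log2 difference of Mmp12 to 5.69 (without WT-1) and 9.74 (without WT-2), of Ccl7 to 5.51 and Ccl8 to 4.67 (without WT-1), and of Ciita to 2.19 and Lgmn to 1.35 (without DMD-1). H2-D1 and Ccl9 did not pass when Ctr-1, Ctr-2 or both were left out (adjusted p 0.0509 to 0.0694).

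Some genes of dividing cells rose, with their highest levels in DMD-1 and DMD-2. Of 11 cell-cycle genes 4 rose and 1 fell, beside 8.37% higher and 6.98% lower among all genes. Their median log2 difference was 2.42. Of the 11, none passed without either WT muscle, 1 passed without DMD-1, 2 without DMD-2 and 10 without DMD-3. Top2a, the topoisomerase that untangles replicated DNA, stood at 0.528 and 0.326 CPM in WT and 13, 6.66 and 0.997 CPM in DMD (log2 3.97 ± 1.0, adjusted p = 0.0295). Top2a overlaps the small gene Gm23451. Ccna2, cyclin A2, stood at 0.158 and 0.0814 CPM and 5.86, 3.16 and 0.26 CPM (log2 4.59 ± 1.25, adjusted p = 0.0378). Ccnb1, cyclin B1, had 2 counts in WT and 293 in DMD, a ratio of scaled pooled counts of 47.2 (exact 95% interval 13 to 392, adjusted p = 0.0459). For all 3 genes DMD-3 lay within 1 CPM of both WT muscles. Cdkn1b, which encodes the cell-cycle inhibitor p27, fell from 64.1 and 47.1 CPM to 16.5, 31.6 and 18.5 CPM (log2 -1.33 ± 0.30, adjusted p = 0.0222), and the Ctr muscles held 95.3 and 134 CPM. None of these 4 passed without WT-1 (adjusted p 0.179 to 0.270) or WT-2 (0.118 to 0.224), and of the 2 still tested without DMD-1 (0.0571 and 0.0679) neither passed, and without DMD-2 only Cdkn1b did. The Ccnb1 difference was 3.80 without WT-1 and 8.81 without WT-2, Ccna2 was 5.19 without WT-1 and Top2a 3.04 without DMD-1. Ccnb1 did not pass when Ctr-1, Ctr-2 or both were left out (0.0560 to 0.0581).

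Many matrix genes of fibrosis rose. Of 17 fibrotic matrix genes 11 rose, against 8.37% higher among all genes, with a median log2 difference of 1.64. Of 11 basement membrane genes 1 rose, which is not read as a difference from that share. Their median was 0.35, and 10 of the 11 differences were positive. Of the 17, none passed without WT-1, 1 without WT-2, 4 without DMD-1, 6 without DMD-2 and 16 without DMD-3. The difference between these lists was not tested. Timp1, an inhibitor of matrix proteases, stood at 0.264 and 0.732 CPM in WT and 12.6, 13.4 and 7.37 CPM in DMD (log2 4.57 ± 0.59, adjusted p = 0.00361). Postn, encoding periostin, which cross-links collagen, stood at 1.74 and 4.15 CPM and 23.6, 28.5 and 7.06 CPM (log2 2.78 ± 0.65, adjusted p = 0.0238). Tnc, tenascin-C, a matrix protein of wounds, went from 0.475 and 0.407 CPM to 2.62, 2.64 and 0.693 CPM (log2 2.15 ± 0.62, adjusted p = 0.0454). In each of these genes DMD-3 was the lowest DMD muscle. Hspg2, perlecan, was the basement membrane gene that rose (log2 1.13 ± 0.29, adjusted p = 0.0317). The collagen genes Col1a1 and Col1a2 had differences of 1.55 and 1.43 that did not pass (adjusted p = 0.0730 and 0.0600, edgeR).

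Most markers of the fibroblast-like cells themselves did not pass, as was true of all genes, where 8.37% were higher and 6.98% lower. Of 10 markers of fibro-adipogenic progenitors, the main matrix-producing cells of muscle, 1 rose, which is not read as a difference from that share. The differences of 9 were positive, and the median log2 difference was 0.55. The summed level of the 10 was 963.1 and 1124 CPM in WT and 1091, 1667 and 1068 in DMD. The riser was Pi16, a marker of fascia-associated progenitors, at 7.34 and 6.1 CPM in WT and 12, 56.5 and 21.1 CPM in DMD (log2 2.13 ± 0.61, adjusted p = 0.0448). Ctr held 18.4 and 39.9 CPM of Pi16, as much as DMD. At the tendon junction, Itga7, the laminin-binding integrin of fibres, rose from 29.4 and 23.4 CPM to 63.8, 47.9 and 55.4 CPM (log2 1.08 ± 0.21, adjusted p = 0.0148), and Col24a1 from 0.158 and 0.163 CPM to 0.665, 1.38 and 2.17 CPM (log2 3.05 ± 0.75, adjusted p = 0.0271). Of 7 tendon genes Comp rose (log2 1.15 ± 0.30, adjusted p = 0.0325) and Fmod fell (log2 -0.93 ± 0.27, adjusted p = 0.0456). Both were lower in Ctr than in WT and in DMD, with Fmod at 2.7 and 4.29 CPM in Ctr, 11.3 and 17.5 CPM in WT and 6.63, 9.1 and 7.02 CPM in DMD. Summed tendon genes ranged from 37.3 to 51.7 CPM in WT, from 26.1 to 34.8 in DMD and from 6.07 to 13.2 in Ctr, and the part of the tendon share in these results was not tested.

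Of 13 growth factor genes 1 rose and 2 fell, beside 8.37% higher and 6.98% lower among all genes. Igf2, a fetal growth factor, rose from 8.66 and 10 CPM to 28.2, 73.8 and 37.1 CPM (log2 2.31 ± 0.39, adjusted p = 0.00935). Igf2 overlaps Gm49394. Mstn, encoding myostatin, the inhibitor of muscle growth, fell from 25.4 and 17.6 CPM to 4.92, 2.31 and 6.11 CPM (log2 -2.25 ± 0.35, adjusted p = 0.00665), while Ctr, at 21 and 15.2 CPM, lay near WT. Tgfb3, a transforming growth factor, fell by 0.73 ± 0.21 (log2, adjusted p = 0.0444), and Tgfb1 had a difference of 1.99 that did not pass. Among the 12 matrix, tendon and growth factor genes called in the last 3 paragraphs, none passed without WT-1 (adjusted p 0.0680 to 0.263) and Timp1 alone without WT-2 (0.0433 to 0.359). Without DMD-1, Postn, Tnc, Hspg2, Tgfb3, Comp and Fmod did not pass, and without DMD-2 only Timp1, Igf2, Mstn and Itga7 did. The log2 difference of Timp1 was 3.91 without WT-1 and 5.35 without WT-2, that of Postn 3.48 without WT-2 and that of Pi16 1.30 without DMD-2. With DMD set against the average of WT and Ctr, Pi16 and Fmod did not pass and Postn, Tnc and Comp were at 3.72, 3.43 and 2.57, and under DESeq2 Tgfb3 and Comp did not (adjusted p = 0.0501 and 0.0730). Tnc and Tgfb3 did not pass without Ctr-1 (0.0570 and 0.0520) or Ctr-2 (0.0559 and 0.0542).

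Slow-fibre genes split. Slow fibres use their own set of myosin and troponin proteins, and the tibialis anterior of the mouse holds few of them. Of 10 slow-fibre genes 1 rose and 2 fell, beside 8.37% higher and 6.98% lower among all genes. Counts this small are not read as a difference from those shares. Myl3, described above, fell the furthest. Myoz2, which anchors calcineurin at the Z-disc of slow fibres, fell from 45 and 54.4 CPM to 7.87, 14.8 and 8.84 CPM (log2 -2.26 ± 0.27, adjusted p = 0.00245), with Ctr at 21.9 and 21.7 CPM. Tnni1, slow troponin I, which newly formed fibres also use, rose from 0.369 and 0.732 CPM to 3.31, 11 and 2.38 CPM (log2 3.35 ± 0.89, adjusted p = 0.0341). The slow myosin heavy chain Myh7 and the light chain Myl2 had differences of -1.67 and -2.12 that did not pass. Of the 12 genes of the fast-fibre list 2 fell, Myh2 and Actn2, beside the same 6.98% among all genes. Actn2 is not confined to fast fibres. Myh2, the myosin heavy chain of fast oxidative fibres, fell from 199 and 227 CPM to 80, 53.6 and 53.4 CPM (log2 -1.77 ± 0.25, adjusted p = 0.00441), and every DMD muscle lay well below both WT muscles. Actn2, an alpha-actinin of the Z-disc, fell from 342 and 362 CPM to 211, 214 and 175 CPM (log2 -0.82 ± 0.20, adjusted p = 0.0266), but Ctr was lower still at 126 and 107 CPM (WT minus Ctr log2 1.59, adjusted p = 0.0457). Myh4, the heavy chain of the fastest fibres, had a difference of -0.09 that did not pass.

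Ankrd1 and Ankrd2, genes of related stretch-sensing proteins of the sarcomere, moved in opposite directions. Of 12 sarcomere stress genes 1 rose and 3 fell, beside 8.37% higher and 6.98% lower among all genes. Ankrd1, an ankyrin-repeat protein of the titin spring that damage induces, stood at 11.3 and 21.1 CPM in WT and 288, 111 and 68.3 CPM in DMD (log2 3.28 ± 0.60, adjusted p = 0.0116). Its relative Ankrd2 fell from 35.3 and 57.5 CPM to 12.9, 10.3 and 10.2 CPM (log2 -2.05 ± 0.27, adjusted p = 0.00387), and Ctr held 56.5 and 36 CPM. Csrp3, the muscle LIM protein, fell from 105 and 312 CPM to 61.3, 50.6 and 31.4 CPM (log2 -2.12 ± 0.42, adjusted p = 0.0159). Hspb7, a small heat-shock protein of striated muscle, fell by 1.05 ± 0.31 (log2, adjusted p = 0.0458). The WT muscles lay far apart in Csrp3, and leaving out WT-2 took its difference to -1.15 (adjusted p = 0.184). Of the 9 genes called in the last 2 paragraphs, Myl3, Myoz2, Csrp3 and Ankrd2 passed without WT-1 (largest adjusted p 0.231), and Myl3 and Myoz2 without WT-2 (0.334). Hspb7 did not pass without DMD-1 (0.0734) and neither Hspb7 nor Tnni1 without DMD-2 (largest 0.106). The Ankrd1 difference was 2.46 without DMD-1 and that of Tnni1 2.44 without DMD-2. Against the average of WT and Ctr, Actn2 was at -0.02 (adjusted p = 0.947), Myl3 at -3.36, Myoz2 at -1.66 and Ankrd1 at 4.03.

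**Figure D4:**
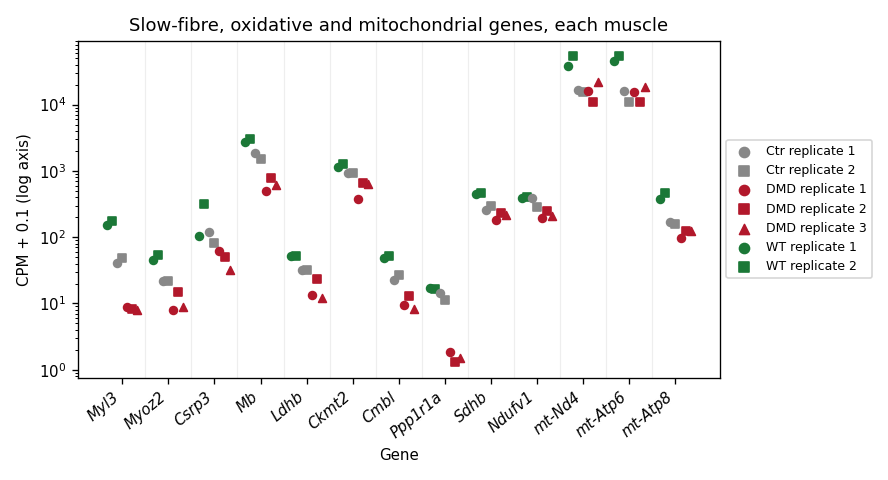
Points give the level of each gene in each of the 7 muscles as CPM + 0.1 on a log axis, coloured by group and shaped by replicate. All DMD points lie below all WT points for these 13 genes, and the 3 mitochondrially encoded genes on the right lie lower than WT in Ctr as well. WT and DMD did not overlap for 2110 of the 2113 genes that passed.

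Genes of oxidative energy supply were lower in DMD. Of 18 nuclear genes of oxidative phosphorylation 8 fell and none rose, against 6.98% lower among all genes, and the median log2 difference was -0.70. None of the 18 passed without either WT muscle, 2 passed without DMD-1, 4 without DMD-2 and 12 without DMD-3. Sdhb, the iron-sulphur subunit of complex II, fell from 455 and 468 CPM to 182, 229.7 and 212 CPM (log2 -1.15 ± 0.20, adjusted p = 0.00998). Ndufv1 and Ndufa9 belong to complex I. Ndufv1 fell from 386 and 398 CPM to 194, 252 and 207 CPM (log2 -0.85 ± 0.22, adjusted p = 0.0339) and Ndufa9 from 79.3 and 88.4 CPM to 40.6, 49.9 and 44.9 CPM (log2 -0.89 ± 0.19, adjusted p = 0.0184). Uqcrfs1, the Rieske protein of complex III, fell from 195 and 226 CPM to 94.1, 89.3 and 137 CPM (log2 -0.98 ± 0.23, adjusted p = 0.0252). Every DMD muscle lay below both WT muscles for these 4 genes. For Sdhb, Ndufa9 and Uqcrfs1 the Ctr muscles lay between the WT and DMD means, with 254 and 295 CPM of Sdhb, 55.4 and 48.2 of Ndufa9 and 141 and 118 of Uqcrfs1. DMD against Ctr did not pass for these 4 genes (log2 -0.40 for Sdhb, -0.64 for Ndufv1, -0.20 for Ndufa9 and -0.28 for Uqcrfs1, adjusted p from 0.0858 to 0.511, edgeR).

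Of the 13 protein-coding genes of the mitochondrial genome 7 fell and none rose, against 6.98% lower among all genes. Their median log2 difference, after TMM scaling, was -1.32. The number of the 13 that passed was 5 without DMD-1, 4 without DMD-2 and 13 without DMD-3, and it was smaller without either WT muscle. mt-Nd4, a complex I subunit, stood at 38300 and 54210 CPM in WT and 16060, 11150 and 22120 CPM in DMD (log2 -1.49 ± 0.32, adjusted p = 0.0202). mt-Atp6, an ATP synthase subunit, stood at 45020 and 54320 CPM and 15620, 10790 and 18290 CPM (log2 -1.74 ± 0.31, adjusted p = 0.0102), and mt-Nd2 at 48010 and 68780 CPM and 16420, 10310 and 30490 CPM (log2 -1.61 ± 0.41, adjusted p = 0.0304). The Ctr muscles stood where the DMD muscles did, at 16630 and 15670 CPM for mt-Nd4, 15900 and 11100 for mt-Atp6 and 14750 and 15760 for mt-Nd2, and DMD against Ctr did not pass for any of the 3 (adjusted p = 0.967, 0.793 and 0.638, edgeR). The WT muscles held the highest levels of all 7 for each of these genes. mt-Atp8, which overlaps mt-Atp6, fell from 376 and 462 CPM to 97.2, 125 and 124 CPM (log2 -1.86 ± 0.21, adjusted p = 0.00210), and WT also exceeded Ctr (log2 1.35, adjusted p = 0.0481). Among transfer RNA genes, mt-Ti, which overlaps mt-Nd1, fell from 661 and 740.2 CPM to 133, 128 and 178 CPM (log2 -2.26 ± 0.24, adjusted p = 0.00166), mt-Tp had a log2 difference of -3.49 ± 0.58 (adjusted p = 0.00862) and mt-Tg of -2.54 ± 0.58 (adjusted p = 0.0226). Of the 11 oxidative and mitochondrial genes called in the last 2 paragraphs, mt-Ti and mt-Atp8 alone passed without WT-1 (largest adjusted p 0.184) or WT-2 (0.228). Uqcrfs1, Ndufv1 and mt-Nd2 did not pass without DMD-1 (largest 0.0809), nor Uqcrfs1, mt-Nd2 and mt-Nd4 without DMD-2 (0.0663). Without DMD-1 mt-Tg was at -3.69, and without DMD-2 mt-Tp was at -4.09. Against the average of WT and Ctr, mt-Tg, Uqcrfs1, mt-Atp6, mt-Nd2 and mt-Nd4 did not pass (largest adjusted p 0.343), mt-Atp8 was at -1.19 and mt-Tp at -2.68.

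Fuel genes of oxidative fibres fell, and several were also lower in DMD than in Ctr. Of 12 genes of fatty acid use 6 fell and none rose, against 6.98% lower among all genes, with a median log2 difference of -0.81. None of the 12 passed without either WT muscle, 1 passed without DMD-1, 5 without DMD-2 and 8 without DMD-3. Fabp3, the fatty acid carrier of muscle, fell from 336 and 494 CPM to 146, 200.3 and 98.8 CPM (log2 -1.49 ± 0.33, adjusted p = 0.0208), and Ctr held 474 and 296 CPM (DMD minus Ctr -1.38, adjusted p = 0.0283). Acadm, the medium-chain acyl-CoA dehydrogenase, fell from 53.2 and 50.7 CPM to 22.9, 21 and 24.4 CPM (log2 -1.19 ± 0.19, adjusted p = 0.00765), with Ctr at 60.2 and 46.1 CPM (DMD minus Ctr -1.22, adjusted p = 0.00923). Etfdh, which passes electrons from fat oxidation to the respiratory chain, fell from 18.6 and 14.2 CPM to 6.42, 7.84 and 4.2 CPM (log2 -1.42 ± 0.32, adjusted p = 0.0226; DMD minus Ctr -1.64, adjusted p = 0.0168). For these 3 genes the ranges of the WT and Ctr muscles overlapped and all DMD muscles lay below them. Cd36, the fatty acid transporter, fell by 1.06 ± 0.29 (log2, adjusted p = 0.0405).

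Of 7 genes of oxygen, creatine and NAD metabolism 4 fell and none rose, against 6.98% lower among all genes. Mb, encoding myoglobin, which stores oxygen, fell from 2770 and 2995 CPM to 500.3, 793 and 623 CPM (log2 -2.17 ± 0.25, adjusted p = 0.00231), and Ctr held 1851 and 1500 CPM (DMD minus Ctr -1.39, adjusted p = 0.0133). Ldhb, the lactate dehydrogenase subunit of oxidative tissue, fell from 52 and 52 CPM to 13.5, 23.7 and 12.1 CPM (log2 -1.67 ± 0.27, adjusted p = 0.00778). Ckmt2, the mitochondrial creatine kinase, fell from 1164 and 1277 CPM to 376, 667 and 639.6 CPM (log2 -1.12 ± 0.27, adjusted p = 0.0247), and Nampt, the NAD salvage enzyme, by 0.99 ± 0.23 (log2, adjusted p = 0.0226). Every DMD muscle lay below every WT muscle for all 4, with no consistent order among the DMD muscles. Of 14 genes of glycolysis and glycogen 2 fell, and the list median was -0.33. This count is not read as a difference from the 6.98% lower among all genes. The 2 were Hk2, hexokinase 2 (log2 -0.90 ± 0.24, edgeR adjusted p = 0.0339), and Gapdh (log2 -0.94 ± 0.24, edgeR adjusted p = 0.0329). Hk2 stood at 453 and 277 CPM in Ctr, above the 160.2 and 149 CPM of WT. Of genes outside the lists, Cmbl, a hydrolase, fell from 48.5 and 52.7 CPM to 9.24, 13.1 and 8.23 CPM (log2 -2.32 ± 0.23, adjusted p = 0.00108), Ptpn3, a tyrosine phosphatase, from 200.5 and 218 CPM to 52, 53.1 and 59.8 CPM (log2 -1.93 ± 0.20, adjusted p = 0.00152), and the unnamed locus Gm4076 (log2 -1.91 ± 0.22, adjusted p = 0.00230). Of the 14 genes called in the last 2 paragraphs, with Ppp1r1a from above included, Mb was the only list member that passed without WT-1 or WT-2. Cmbl, Ptpn3, Gm4076 and Ppp1r1a, which are outside the lists and not fuel genes, passed in both fits. Gapdh, Hk2, Fabp3, Etfdh, Cd36 and Nampt did not pass without DMD-1 (largest adjusted p 0.0805), nor Gapdh, Hk2, Cd36 and Nampt without DMD-2 (0.0856). Gapdh also missed without Ctr-1 (0.0509) or Ctr-2 (0.0514) and against the average of WT and Ctr (0.0519), where the Hk2 difference was -1.52.

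**Figure D5:**
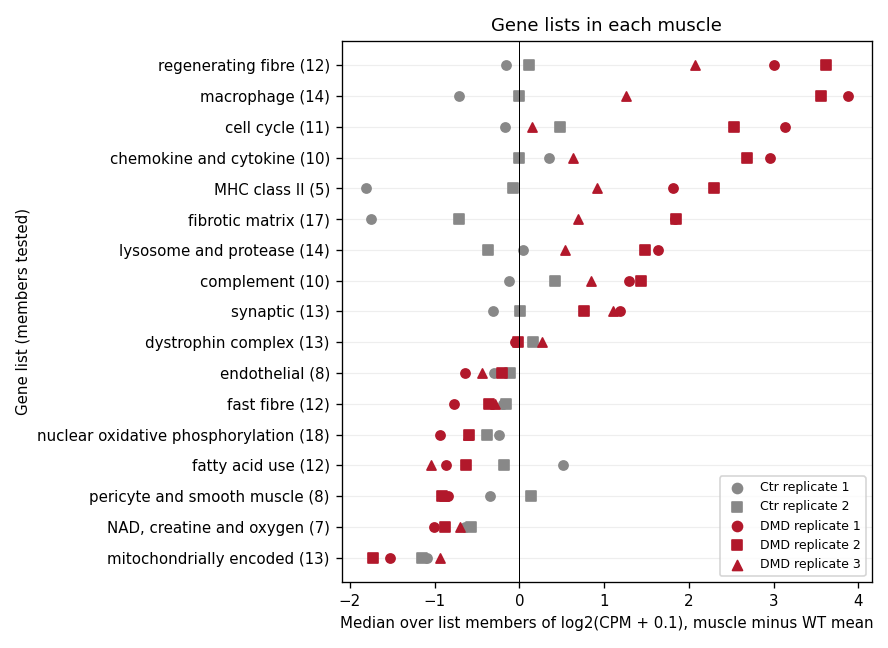
Each point is the median over the tested members of a gene list of log2(CPM + 0.1) in 1 muscle minus that of the WT mean, with DMD red, Ctr grey and the replicate given by shape. DMD-3 (triangle) lies left of the other DMD muscles for the first 8 lists, at 1.26 for macrophage genes against 3.87 and 3.56, and the mitochondrially encoded genes lie below 0 in Ctr as well as in DMD.

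Some genes of vessel cells fell, beside 6.98% lower among all genes. Of 8 pericyte and smooth muscle genes 3 fell: Rgs5, a pericyte signalling regulator, from 131 and 164 CPM to 83.9, 78.1 and 75.9 CPM (log2 -0.90 ± 0.19, adjusted p = 0.0185), Kcnj8, a potassium channel of pericytes (log2 -1.14 ± 0.26, adjusted p = 0.0226), and Myh11, smooth muscle myosin, from 28.6 and 33.4 CPM to 16, 15.4 and 19.5 CPM (log2 -0.87 ± 0.21, adjusted p = 0.0249). Of 8 endothelial genes none passed, with Kdr, a receptor of vascular endothelial growth factor, at -0.94 ± 0.31 (adjusted p = 0.0657). Fabp4, an adipocyte and capillary fatty acid carrier, fell by 0.95 ± 0.22 (log2, edgeR adjusted p = 0.0242). It comes from a list of adipocyte genes, of which 5 were tested, and the other 4 did not pass. Summed endothelial genes ranged from 460.9 to 511.9 CPM in WT, from 231.4 to 377.1 CPM in DMD and from 326.8 to 375.7 CPM in Ctr. DMD against Ctr did not pass for Rgs5, Kcnj8 and Fabp4 (adjusted p = 0.235, 0.840 and 0.412, edgeR). It passed for Myh11 (log2 -0.83, adjusted p = 0.0324, edgeR). None of 7 red-cell genes and none of 12 ribosomal protein genes passed, beside 15.3% of all genes in either direction. The endothelial, adipocyte, red-cell and ribosomal counts are too small to be read as a difference from these shares. The 4 called genes did not pass without WT-1 (adjusted p 0.0967 to 0.136) or WT-2 (0.193 to 0.258). Without DMD-1 Fabp4 and Myh11 did not pass (largest 0.0672), and without DMD-2 only Rgs5 did. Against the average of WT and Ctr Kcnj8 did not pass (adjusted p = 0.132).

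Genes that respond within hours, and genes of the body clock, are sensitive to how and when a muscle is taken, and the labels give no times. The counts below stand beside 8.37% higher and 6.98% lower among all genes. Of 8 immediate early genes 5 rose and none fell, and none passed without either WT muscle. Fos, a transcription factor subunit, stood at 0.792 and 0.651 CPM in WT, 9.83, 2.7 and 6.54 CPM in DMD and 4.53 and 1.51 CPM in Ctr (DMD minus WT log2 3.14 ± 0.65, adjusted p = 0.0176). Junb, its partner, stood at 0.897 and 0.976 CPM, 11.9, 6.13 and 4.46 CPM and 8.88 and 2.19 CPM (log2 3.02 ± 0.66, adjusted p = 0.0203). In both genes Ctr-1 overlapped the DMD muscles. Egr1 (log2 1.63 ± 0.36, adjusted p = 0.0214) and Atf3 (log2 1.89 ± 0.48, adjusted p = 0.0305), further early transcription factors, rose as well. Of 10 clock genes 3 rose, the period genes. Per1 stood at 3.33 and 2.85 CPM in WT, 12.1, 11.8 and 15.4 CPM in DMD and 20 and 20.5 CPM in Ctr. DMD exceeded WT (log2 2.08 ± 0.23, adjusted p = 0.00204) and so did Ctr (WT minus Ctr log2 -2.70, adjusted p = 0.00336). Per3 rose from 2.32 and 3.74 CPM to 16, 14.8 and 16.4 CPM (log2 2.40 ± 0.44, adjusted p = 0.0116), and Per2 had a log2 difference of 1.66 ± 0.49 (adjusted p = 0.0470). Of 7 heat-shock genes 1 fell, Hspa8 (log2 -0.73 ± 0.20, edgeR adjusted p = 0.0369), which overlaps small nucleolar RNA genes. A count of 1 among 7 is not read as a difference from the share of all genes.

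The smallest adjusted p values of genes outside the lists included a pair of unnamed loci that separated WT from both other groups. Gm37743 on chromosome 15 held 22.1 and 11.5 CPM in WT, 0.0341, 0 and 0.0433 CPM in DMD and 0.0613 and 0 CPM in Ctr. Gm43426 on chromosome 5 held 22.2 and 11.5 CPM, 0.017, 0.0659 and 0.0433 CPM and 0.0613 and 0 CPM. WT had 559 and 562 counts of them in all and DMD had 3 of each, ratios of scaled pooled counts of 578 (exact 95% interval 197 to 2810) and 581 (198 to 2830). The levels of the loci matched each other muscle by muscle in WT, although their GENCODE M21 transcripts share no stretch of 31 bases. A further gene outside the lists, 0610040J01Rik, did not set WT apart from Ctr. It fell from 6.86 and 6.92 CPM to 0.239, 0.264 and 0.477 CPM (log2 -4.44 ± 0.32, adjusted p = 0.000178), with Ctr at 5.02 and 6.14 CPM near WT. Both of the unnamed loci passed without either WT muscle in turn, as did 0610040J01Rik, while Per1 passed without WT-1 but not without WT-2. The other 7 genes called in the last 2 paragraphs passed in neither fit (largest adjusted p 0.317 and 0.213). Without DMD-1, Atf3, Egr1, Hspa8 and Per2 did not pass (largest 0.0839), and without DMD-2 Atf3, Hspa8 and Per2 did not (0.0948). The Per2 difference was 1.07 without WT-1 and 2.40 without WT-2, and that of Gm43426 -8.15 without DMD-1. Against the average of WT and Ctr Per2 did not pass (adjusted p = 0.160), and the differences were smaller for Per1 (0.73), Per3 (1.75), Fos (2.11), Junb (1.73), Egr1 (1.02), Gm37743 (-4.51) and Gm43426 (-4.48).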

How the data were processed

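RNA of single cryosections of 7 tibialis anterior muscles was barcoded per section. The authors aligned the reads with STAR 2.7.7a to GRCm38, per the submitters' processing notes, and the deposited tables hold estimated counts per gene and section, which the authors made with featureCounts 2.0.1 on 1 strand with multi-mapped reads split into fractions and overlapping genes both counted, per the file headers. The headers name Ensembl release 102 for WT and another GRCm38 annotation for Ctr and DMD. Whether unique molecular identifiers were collapsed is not given in the sources used here.

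Sections were summed per muscle and rounded to whole numbers. Of 53187 gene names in both annotations, 12 with another length and 92 spike-ins were left out, as were the added EGFP and human DMD rows, leaving 53083 genes. The authors' multi-mapped fractions mean that genes with near-identical copies are uncertain. Counts were tested with edgeR 4.0.16 in R 4.3.3 (filterByExpr, TMM, quasi-likelihood test, Benjamini-Hochberg adjustment over 13766 genes), in 1 fit of all 7 muscles, with genes called at an adjusted p under 0.05 and 4 residual degrees of freedom. The script was tested on simulated data. DESeq2 1.42.0 was an alternative, with other scalings, filters, references, section sets, the replicate number as a block and each muscle left out in turn. Exact 95% intervals cover counting error only, since amplified reads are not independent molecules. Promoters came from the RefSeq table of GRCm38.p6.

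Named genes were the 12 with the largest difference in each direction among called genes whose WT and DMD ranges did not overlap and whose mean reached 20 CPM, those stable to leaving out each of the 5 muscles first, up to 4 members of each list, the 5 unlisted genes with the smallest adjusted p, Dmd and the added sequences. Some genes that the rule took are not reported here. Members that did not pass are named after their values were seen. The muscles, gene lists and rule were chosen with earlier results of these data known, so no list counts as independent support. Per-muscle list medians used log2(CPM + 0.1).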

Additional observations from a re-analysis of the deposited data

Results flagged for a closer look

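Reads of EGFP, a green fluorescent protein whose row is present in the WT annotation alone, were found in both WT muscles, with 36 counts in WT replicate 1 and 15 in WT replicate 2. Both exceed the 3 counts that a count of 0 allows, and there was no control counted against the same row. Scaled by the total alone these were 1.53 and 0.816 CPM. The source of these reads was not tested.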

How the results depend on the processing

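DMD against WT gave 2113 genes. Testing every gene with at least 1 count gave 3218, and the replicate block gave 4031. Leaving out 1 muscle gave from 54 to 3585. The other alternatives gave from 1924 to 2958, within 1.5 times of the reported count. WT against Ctr gave 61 genes, 852 with every gene that had at least 1 count, 785 with the replicate block, and from 2 to 490 with 1 muscle left out. The shared replicate numbers are not said to pair the muscles, and same-numbered WT and DMD muscles deviated together with r = 0.010 and 0.10 across genes, so the block is not read as a paired result. Of the 106 called genes that the naming rule took, 106 passed with RLE size factors, with kept sections only and with the replicate block, 104 with DESeq2, 105 with every gene of at least 1 count, all but 4 with only WT and DMD in the fit, 93 against the average of WT and Ctr, and 99 without mitochondrial genes, where 7 were not tested. With 1 muscle left out, 18 passed without WT-1, 16 without WT-2, 65 without DMD-1, 66 without DMD-2 and 106 without DMD-3, and 99 without either Ctr muscle. A sole reversal was seen in these settings: Fmod, against the average of WT and Ctr, had a log2 difference of 0.10 (adjusted p = 0.801, edgeR), where the lower Ctr level enters the reference. Genes with few WT counts, such as Chrng, Mmp12, Trem2 and Ccnb1, are limited by depth.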
